A study of Mus musculus with 2 samples.

Results

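The enzymes described here carry glucose carbon from hexokinase to lactate, through the pyruvate dehydrogenase complex and the tricarboxylic acid (TCA) cycle, through the pentose phosphate pathway and into and out of glycogen. They were named as a list of 43 genes, and each was found by its Ensembl gene identifier in both gene tables, so that 43 of 43346 Ensembl gene rows are covered. The tissue was urinary bladder of C57BL/6J mice, adult at 8 weeks, from littermates that the labels call mixed in sex. There was 1 group with no treatment, represented by 2 stranded paired-end libraries of polyadenylated RNA numbered as biological replicates 1 and 2. Both libraries name the same donor entry, and how many animals each holds is not given in the sources used here, so the spread between them may be partly technical.

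Glycolysis splits glucose into pyruvate in the cytosol and yields ATP without oxygen. Lactate dehydrogenase then exchanges pyruvate and lactate, or the pyruvate dehydrogenase complex commits pyruvate to the mitochondrion, where the TCA cycle oxidises it. The pentose phosphate pathway draws off glucose phosphate to make NADPH and ribose, and glycogen phosphorylase and glycogen synthase control the glucose store. Many of these steps are catalysed by several isozymes, separate genes for the same reaction whose products differ in kinetics and in the tissues that favour them. The bladder wall combines urothelium, connective tissue and the detrusor, a smooth muscle that contracts on demand.

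The libraries held 99367453 (replicate 1) and 105057347 (replicate 2) estimated fragments on genes, so that a count of 0 allows up to 0.0302 and 0.0286 CPM (counts relative to those of all genes). That limit is 3 counts and covers counting error only. Levels are in TPM, a transcript abundance scaled to the library total, which adjusts for transcript length, and are given per library or as mean ± SD of the 2 libraries. Smooth muscle markers summed to 27931 TPM in replicate 1 and 25310 TPM in replicate 2, led by Acta2 and Tagln, and urothelial markers to 4163 and 5794 TPM, led by Upk1a and Upk3a, with all 7 and all 6 genes above 1 TPM. In whole tissue, fewer cells of a type and less RNA per cell cannot be told apart.

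The sequences that distinguish enzyme forms come first, because the splice results below turn on them. Pyruvate kinase M, encoded by Pkm at chr9:59656368-59679375 on the plus strand of mm10, is made in a muscle-type form (M1) and an M2 form that differ by a pair of mutually exclusive coding exons. The M1 exon lies at chr9:59675029-59675195 and the M2 exon at chr9:59675568-59675734. Both have 167 bases, differ at 64 positions (61.7% identity) and are printed with the differing bases in capitals, from transcripts Pkm-202 and Pkm-201 of GENCODE M21.
Pkm M1 exon: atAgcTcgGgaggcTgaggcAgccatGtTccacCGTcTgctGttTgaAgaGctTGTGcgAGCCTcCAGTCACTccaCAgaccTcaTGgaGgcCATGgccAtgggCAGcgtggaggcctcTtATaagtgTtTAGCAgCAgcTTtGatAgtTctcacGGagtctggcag
Pkm M2 exon: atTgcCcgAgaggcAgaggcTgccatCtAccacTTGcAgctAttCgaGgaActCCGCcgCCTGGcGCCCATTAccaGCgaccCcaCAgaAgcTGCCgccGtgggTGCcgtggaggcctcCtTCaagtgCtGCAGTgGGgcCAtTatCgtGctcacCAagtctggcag
The longest run shared without a difference was 12 bases. Of the first 30 positions 7 differed, and of the last 30 positions 8 differed.

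Hexokinase 1 also has an optional coding exon of 69 bases in transcript Hk1-201, at chr10:62291975-62292043 on the minus strand, which Hk1-202 skips. It is shown because the deposited readouts gave it very different usage.
Hk1 alternative exon: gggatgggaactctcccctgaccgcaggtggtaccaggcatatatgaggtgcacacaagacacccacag
Aldolase A has alternative first exons, and the 250 bases upstream of the starts of Aldoa-201 (chr7:126799255-126799504, minus strand) and Aldoa-203 (chr7:126800448-126800697, minus strand) are taken from the RefSeq promoter table (GRCm38.p6). Capitals mark ACGTG or GCGTG (the core of hypoxia-response elements), GGGCGG (the GC box), CCAAT and TATAAA on either strand.
Aldoa upstream of Aldoa-201: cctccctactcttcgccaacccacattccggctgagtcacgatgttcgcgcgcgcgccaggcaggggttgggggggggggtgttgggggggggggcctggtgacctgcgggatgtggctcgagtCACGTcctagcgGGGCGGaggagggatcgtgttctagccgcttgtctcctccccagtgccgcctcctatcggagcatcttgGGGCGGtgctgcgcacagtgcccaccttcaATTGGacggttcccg
Aldoa upstream of Aldoa-203: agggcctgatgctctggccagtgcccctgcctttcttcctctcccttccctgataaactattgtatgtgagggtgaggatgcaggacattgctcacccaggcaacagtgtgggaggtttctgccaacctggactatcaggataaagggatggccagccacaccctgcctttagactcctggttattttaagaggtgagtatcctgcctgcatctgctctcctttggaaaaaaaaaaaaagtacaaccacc
The first window, with 67.6% G and C, held 1 hypoxia-response core, 2 GC boxes and 1 CCAAT. The second window, with 50.4% G and C, held none of the 4 motifs.

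Of the 43 enzymes, 41 reached 1 TPM in both libraries, and the remaining pair, Pgam2 and Pklr, stayed below it in both. Of all 43346 genes, 14533 averaged 1 TPM or more, which is the background for each list count below. Together the 43 enzymes took 0.796% of gene TPM in replicate 1 and 0.862% in replicate 2. Their median was 84.0 TPM, against 14.4 TPM for the 14533 genes averaging 1 TPM or more, and 39 members lay above that median. Only Gapdh ranked among the 100 genes of highest mean TPM, 10 members ranked among the highest 500 and 18 among the highest 1000. Gapdh, Aldoa, Pkm and Ldhb held 46.8% of the members' TPM in replicate 1 and 46.0% in replicate 2.

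**Figure D1:**
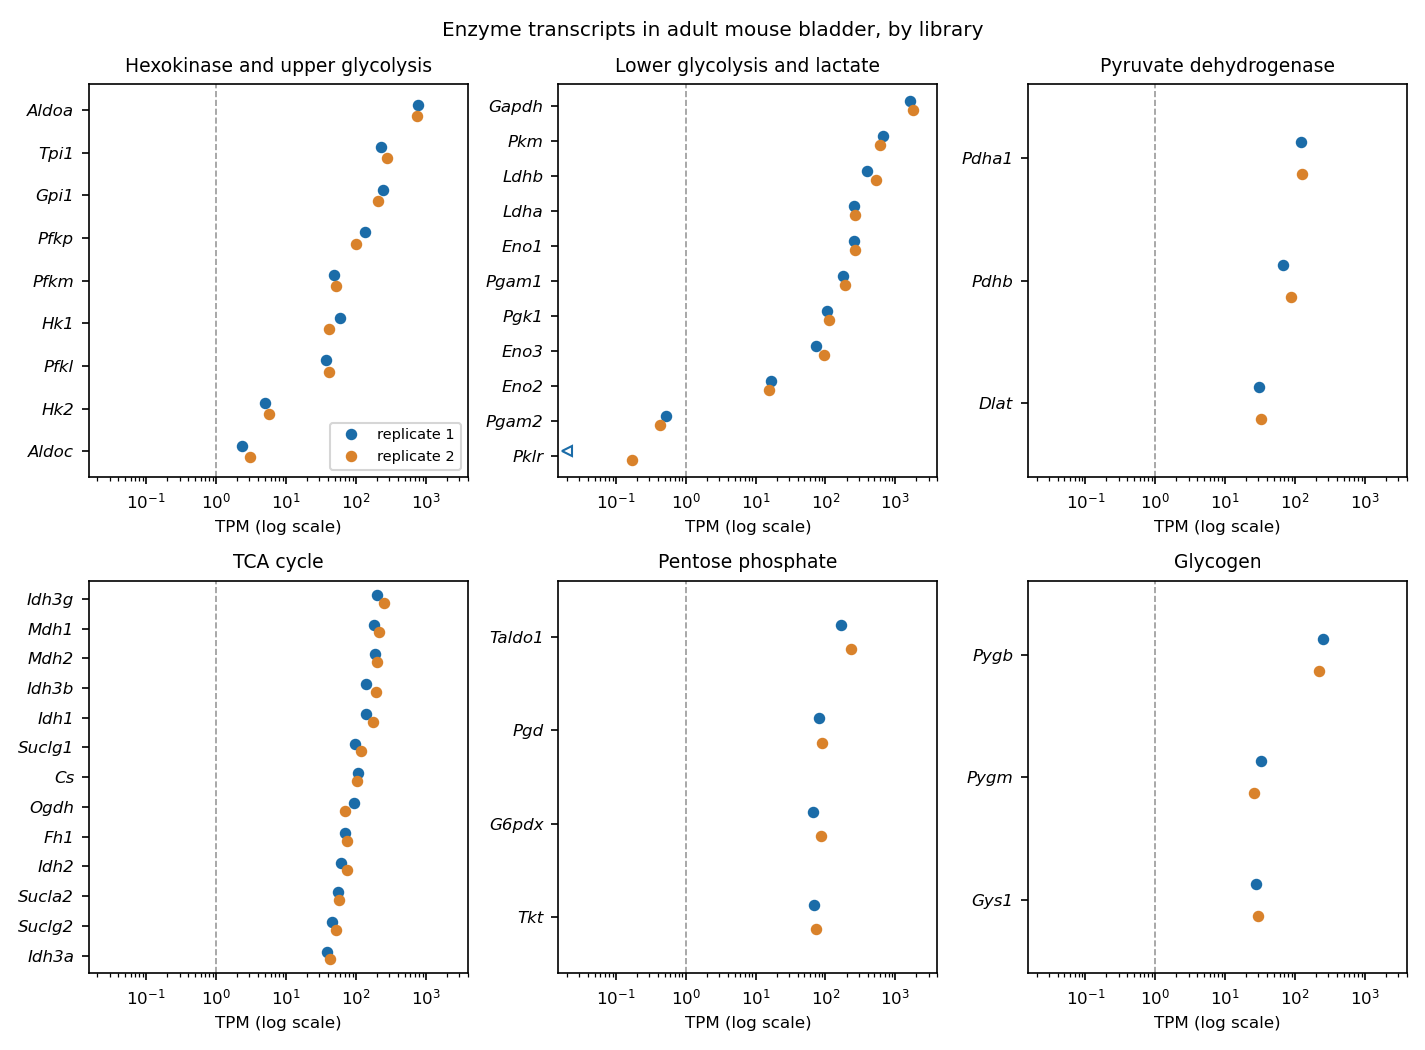
TPM of each enzyme on a log axis, with replicate 1 in blue above replicate 2 in orange, in 6 panels by role. The dashed line marks 1 TPM, the open triangle marks a value of 0 (Pklr in replicate 1), and only Pgam2 and Pklr lie below the line.

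The preparatory steps of glycolysis ran from a low hexokinase level to a high aldolase level. Hk1, which phosphorylates glucose and binds mitochondria, had 58.8 TPM in replicate 1 and 40.6 TPM in replicate 2. Hk2, the isozyme typical of insulin-responsive muscle and fat, had 5.02 and 5.63 TPM. Hk1 was the higher in both libraries, by 3.09 ± 0.48 on the log2 scale, and took 85.8 ± 2.8% of the TPM of the 4 hexokinase genes compared. Of the others, Hk3 had 3.07 and 2.10 TPM, while Hkdc1 had 0.10 TPM in both.

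Gpi1, which interconverts glucose and fructose phosphates, had 244 TPM in replicate 1 and 204 TPM in replicate 2. Phosphofructokinase, the committed step of glycolysis, was represented by all 3 of its subunit genes. Pfkp (platelet type) had 134 and 101 TPM, Pfkm (muscle type) 48.5 and 52.0 TPM, and Pfkl (liver type) 36.8 and 40.8 TPM. The order Pfkp, Pfkm, Pfkl was the same in both libraries, with log2 ratios of 1.21 ± 0.36 for Pfkp over Pfkm and -0.37 ± 0.03 for Pfkl over Pfkm. Pfkp took 56.7 ± 6.4% of the family, and the muscle-type subunit was not the leading form in this muscular organ.

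Aldoa, which cleaves fructose bisphosphate, was second among the members with 785 TPM in replicate 1 and 760 TPM in replicate 2. Aldoc, the brain-enriched isozyme, had 2.32 and 3.05 TPM. Aldoa thus held 99.7 ± 0.07% of the TPM of these 2 aldolase genes. Tpi1, which equalises the triose phosphates that aldolase releases, had 231 and 279 TPM.

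Spliced reads of Aldoa came mainly from a single first exon. In the deposited mm9 junction table, which sums both libraries, 12355 of 13797 reads entering the shared second exon came from the first exon of Aldoa-201 (89.5%, exact 95% binomial interval 89.0% to 90.1%, counting error only). The first exons of Aldoa-210 and Aldoa-203 gave 747 reads (5.41%) and 692 reads (5.02%). Counted as a single transcript, Aldoa-201 held 84.3 ± 0.4% of Aldoa transcript TPM on mm10, but only 36.7% of the mm9 transcript RPKM. The cause of that difference was not tested. The GC-rich window printed above therefore lies before the Aldoa-201 start of the first exon with most reads. The window with none of the 4 motifs lies before a minor one.

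The payoff steps held the most abundant member. Gapdh, which oxidises glyceraldehyde phosphate and is the usual loading control, had 1644 TPM in replicate 1 and 1769 TPM in replicate 2. Pgk1, the X-linked kinase that makes the first ATP of glycolysis, had only 104 and 112 TPM, and Pgam1 had 181 and 188 TPM. The muscle isozyme Pgam2 had 0.53 and 0.43 TPM from 26 and 23 counts, so Pgam1 held 99.7% of mutase TPM. Eno1, the ubiquitous enolase, had 258 and 262 TPM, Eno3 (muscle enolase) 72.3 and 94.6 TPM, and Eno2 (neuronal enolase) 16.5 and 15.6 TPM.

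The enolase order was the same in both libraries, with Eno1 over Eno3 at 1.65 ± 0.26 and Eno3 over Eno2 at 2.33 ± 0.33 on the log2 scale. Muscle enolase thus took 23.1 ± 3.2% of enolase TPM although muscle mutase took 0.26 ± 0.05% of mutase TPM. Beside these values, 10 skeletal muscle markers summed to 1695 TPM in replicate 1 and 1361 TPM in replicate 2, led by Acta1 (1371 and 1042 TPM) and Ckm (263 and 259 TPM). Of the 10, 4 reached 1 TPM in both libraries, the other two being Tnnt3, fast troponin T (55.95 and 55.5 TPM), and Myh2 (1.43 and 2.19 TPM). Of the other fast-fibre genes of the list, Actn3 had 1.76 and 0.98 TPM and Mylpf 0.62 and 1.21 TPM, while Myh1, Myh4, Atp2a1 and Pvalb were at or below 0.40 TPM in both. For Eno2, the 6 neuronal and neuroendocrine markers summed to 17.1 and 15.95 TPM, led by Stmn2 (8.33 and 7.24 TPM) and Prph (3.95 and 4.12 TPM), with Nefl and Elavl4 below 1 TPM. The part of either cell type in the isozyme levels was not tested.

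Pkm had 675 TPM in replicate 1 and 603 TPM in replicate 2, below only Gapdh and Aldoa among the members, and Pklr, the liver and red cell pyruvate kinase, had 0 and 0.17 TPM from 0 and 2 counts. Erythroid markers were led by Hbb-bs (136 and 161 TPM) and Hba-a2 (122 and 148 TPM, a near-identical copy of Hba-a1), while Alas2 had 0.98 and 0.60 TPM and Slc4a1 0.01 TPM in both. Liver markers were led by Ttr (24.4 and 28.3 TPM) and Alb (3.37 and 0.71 TPM), with Apoa1 at 0.61 and 0.39 TPM. Pklr was thus at or under the 3-count limit in both libraries, and no fold is given against it.

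The 2 lactate dehydrogenase subunits were both abundant. Ldha, the M subunit typical of fast muscle, had 257 and 265 TPM in replicates 1 and 2, and Ldhb, the H subunit typical of heart, had 393 and 523 TPM. Ldhb was the higher in both libraries, with Ldha over Ldhb at -0.79 ± 0.26 on the log2 scale, and Ldhb held 63.4 ± 4.2% of the family. The testis subunit Ldhc was at 0 in both.

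Summed over isozymes, the 11 steps from hexokinase to lactate dehydrogenase covered a wide range. Hexokinase was the lowest step in both libraries, with 67.0 TPM in replicate 1 and 48.5 TPM in replicate 2, followed by phosphoglycerate kinase with 104 and 112 TPM and phosphoglycerate mutase with 181 and 189 TPM. The glyceraldehyde phosphate dehydrogenase step was the highest with 1644 and 1769 TPM. Aldolase (787 and 763 TPM), lactate dehydrogenase (650 and 789 TPM) and pyruvate kinase (675 and 603 TPM) followed, in an order that differed between the libraries. Both ends of this order hold for mm10 TPM only. By mean mm9 RPKM, Pgk1 (4.69) lay below Hk1 alone (8.32), so hexokinase was not the lowest step. Gapdh (37.9) lay below Aldoa (98.2), Pkm (77.5) and Ldhb (51.2) by that measure.

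**Figure D2:**
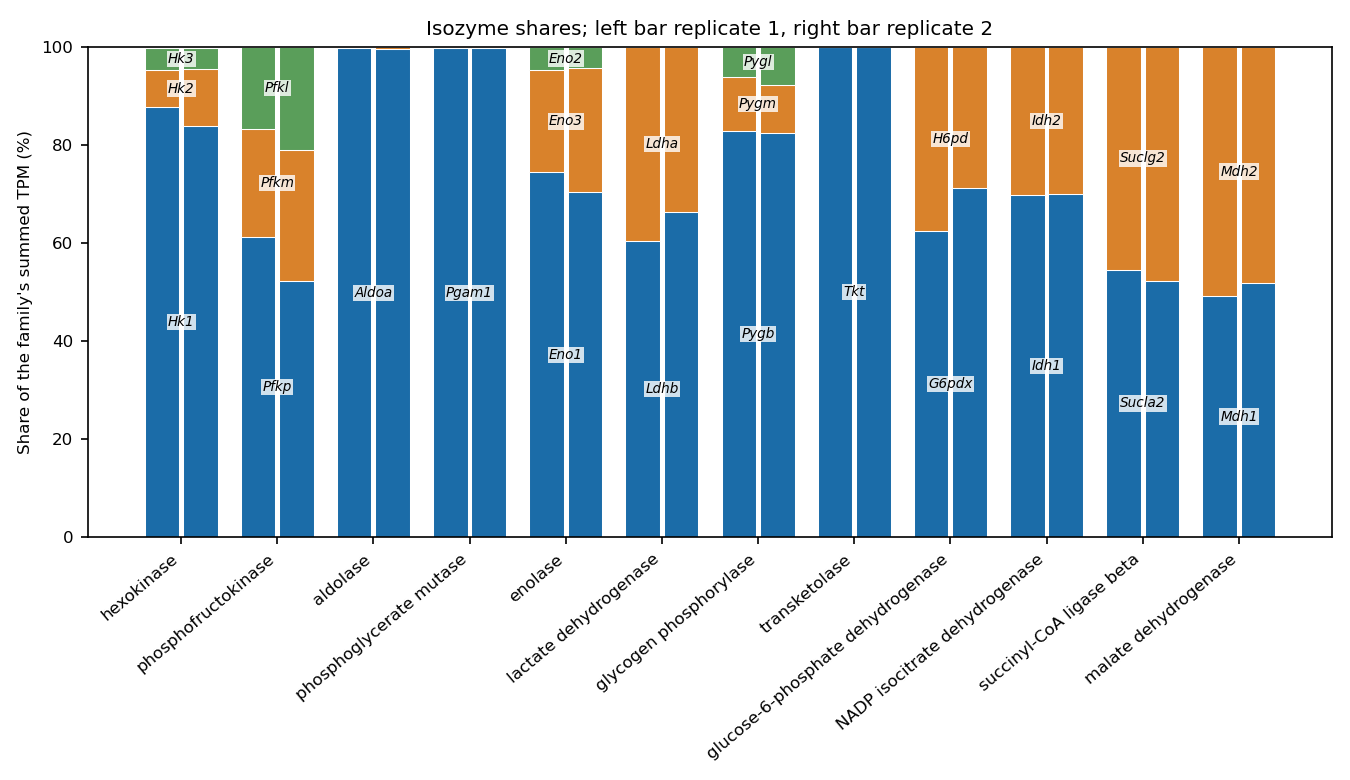
Share of each isozyme in the summed TPM of its family, in percent, with the left bar of each pair for replicate 1 and the right bar for replicate 2. The leading isozyme was the same in both libraries in 11 of the 12 families, and the malate dehydrogenases (Mdh1 49.1% and 51.8%) changed order.

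The M1 and M2 forms of Pkm were about equal in the mm10 transcript tables but not in every readout. The M2 transcript, Pkm-201, held 48.7% of Pkm TPM in replicate 1 and 57.0% in replicate 2, and the M1 transcript, Pkm-202, held 51.3% and 42.98%. The leading form therefore changed between the libraries. Reads joining the shared upstream exon to the alternative exons gave 5861 reads for M2 and 5182 for M1, an M2 share of 53.1% (exact 95% interval 52.1% to 54.0%). Reads joining the alternative exons to the shared downstream exon gave 1049 for M2 and 5018 for M1, an M2 share of 17.3% (16.3% to 18.3%).

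Each molecule of either form holds both kinds of junction, and the intervals of the 2 shares do not overlap. The reads that disagree are those leaving the M2 exon, which numbered 1049 against 5861 entering it, while the M1 exon had 5018 leaving and 5182 entering. Reads joining the M1 exon to the M2 exon numbered 27, and reads skipping both numbered 3. The M2 share in the deposited mm9 transcript RPKM, the authors' value without a replicate, was 27.3%. Both forms were present by each of the 4 readouts, and the M2 share ran from 17.3% to 57.0% across them.

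**Figure D3:**
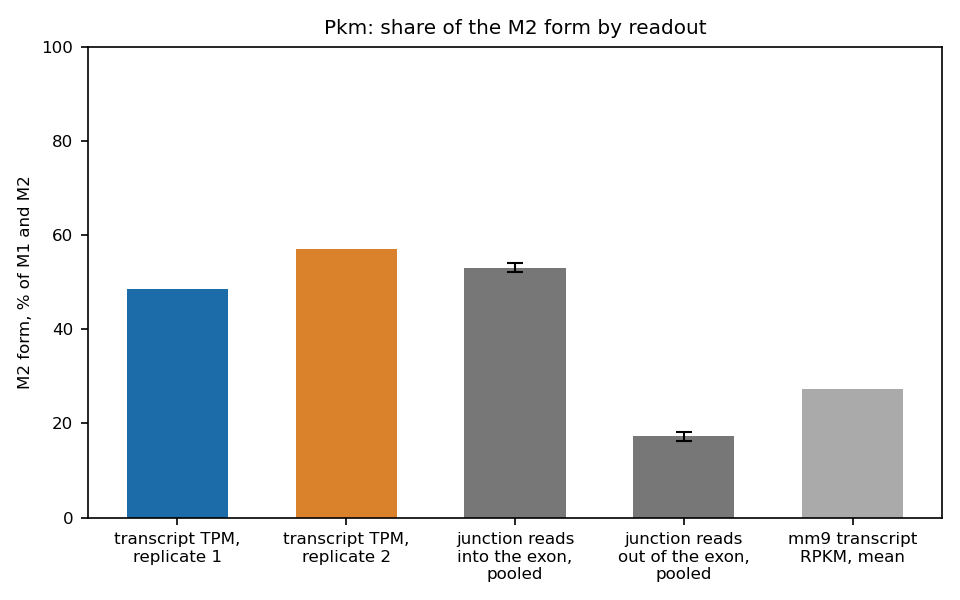
Share of the M2 form among M1 and M2 forms of Pkm, in percent, by readout; the bars on the pooled junction reads are exact 95% binomial intervals for counting error only. Transcript TPM and the reads entering the exon lie between 48.7% and 57.0%, and the reads leaving it and the mm9 RPKM lie at 17.3% and 27.3%.

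For Hk1 both flanks of the optional exon gave the same balance, but junction reads and transcript quantifications differed. Hk1-201, with the optional exon printed above, held 35.9% of Hk1 TPM in replicate 1 and 26.0% in replicate 2, and Hk1-202 held 62.8% and 73.3%. In the pooled junction table only 16 and 15 reads supported inclusion at the exon's flanks, against 1029 reads that skipped it, an inclusion of 1.53% (0.878% to 2.47%) and 1.44% (0.806% to 2.36%). In the mm9 transcript RPKM, Hk1-201 took 85.0%. Nearly all spliced reads across this stretch therefore left the exon out, whatever share the 2 transcript quantifications gave to the transcript that holds it. The cause of the difference between these readouts was not tested.

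Other members with alternative junctions of at least 50 reads and 5% were Eno3 and Ogdh. In Ogdh, the E1 subunit of oxoglutarate dehydrogenase, 1693 reads joined the exon of Ogdh-201 and Ogdh-204 and 115 reads (6.36%) the exon of Ogdh-202 and Ogdh-203. The reads leaving to a shared downstream exon numbered 1639 for Ogdh-201 and Ogdh-204 and 121 (6.88%) for Ogdh-202, without Ogdh-203. Both sides thus gave a similar balance, unlike Pkm, though not for an identical set of transcripts. In Eno3, 660 reads from a shared first exon used the acceptor of Eno3-201 and 91 reads (12.1%) that of Eno3-202.

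Of the 43 members, 6 had 1 quantified transcript, and in 17 of the other 37 a single transcript held over 90% of TPM in both libraries. Some levels rested on short or non-coding transcripts. Coding transcripts held 47.6 ± 3.8% of Dlat TPM, 41.7 ± 7.3% of Eno2, 66.5 ± 3.1% of Idh3g, 71.6 ± 3.8% of Pfkp and 77.7 ± 1.3% of Gapdh, and 10 members fell below 90%. Transcripts absent from GENCODE M21 have no type and were left out of the coding share. Gys1, among the 10, had 6 quantified transcripts, of which only Gys1-201 was typed. For Gapdh, the non-coding Gapdh-208 of 483 bases took 22.0% and 19.6%. For Fh1 and Mdh1, the short coding models Fh1-205 (542 bases, 37.0% and 31.7%) and Mdh1-202 (549 bases, 24.9% and 19.1%) took a large part.

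The pyruvate dehydrogenase complex joins glycolysis to the TCA cycle, and its 3 members kept the same order in both libraries. Pdha1, the X-linked subunit that phosphorylation switches off, had 121 TPM in replicate 1 and 127 TPM in replicate 2. Pdhb, its partner in E1, had 66.8 and 86.8 TPM, and Dlat, the E2 core, had 30.2 and 32.3 TPM. Pdha1 over Pdhb was 0.70 ± 0.22 on the log2 scale although the 2 proteins pair one to one in E1. Pdha1 was 3.96 ± 0.06 times Dlat, and Dlat was 2.14 ± 0.27 times Pdhx, the E3-binding protein (13.0 and 16.6 TPM). Both ratios include non-coding Dlat transcripts, since coding ones held 47.6% of Dlat TPM (15.2 and 14.5 TPM). Coding Dlat alone was above Pdhx in replicate 1 and below it in replicate 2, and further below Pdha1.

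All 13 TCA cycle members exceeded 38 TPM in both libraries. Their mean levels ran from 40.6 to 224 TPM, against 0.085 to 1707 TPM for the glycolytic members. The low glycolytic end was set by the minor isozymes Pklr and Pgam2, which have no counterpart among the TCA members. Summed over isozymes, the glycolytic steps ran from 57.7 to 1707 TPM. Cs, the entry enzyme that condenses acetyl-CoA with oxaloacetate, had 106 TPM in replicate 1 and 103 TPM in replicate 2. Mdh1 (cytosolic) had 181 and 213 TPM and Mdh2 (mitochondrial) 188 and 198 TPM. The 2 malate dehydrogenases did not differ beyond their spread in TPM, with Mdh2 over Mdh1 at -0.03 ± 0.11 on the log2 scale. They were the only 1 of the 21 pairs compared whose order changed between the libraries. The same ratio was -0.35 by CPM and -0.68 by mm9 RPKM, so the near-equality holds for mm10 TPM only. Fh1, fumarase, had 68.8 and 73.5 TPM.

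The subunits of NAD-dependent isocitrate dehydrogenase, which work as 1 complex, were far from equal. The catalytic subunit Idh3a had 38.1 TPM in replicate 1 and 43 TPM in replicate 2, the partner Idh3b had 139 and 191 TPM, and the X-linked regulatory partner Idh3g had 198 and 249 TPM. Idh3b was 4.04 ± 0.55 times Idh3a and Idh3g was 5.49 ± 0.41 times Idh3a. Since coding transcripts held 66.5% of Idh3g TPM, the ratio of coding transcripts is smaller, and Idh3g stayed above Idh3a with coding transcripts alone. Of the NADP-dependent enzymes, Idh1 (cytosol and peroxisome) had 141 and 178 TPM and Idh2 (mitochondrion) 60.8 and 75.8 TPM, a log2 ratio of 1.21 ± 0.01.

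Ogdh had 93.3 and 70.7 TPM in replicates 1 and 2, and its E2 partner Dlst 81.2 and 80.6 TPM. For succinyl-CoA ligase, the shared alpha subunit Suclg1 had 97.9 and 118 TPM, while the ATP-forming beta subunit Sucla2 had 54.7 and 57.4 TPM and the GTP-forming beta subunit Suclg2 45.6 and 52.5 TPM. The beta subunits together came to 0.977 ± 0.066 of the alpha subunit. That ratio lay within its spread of 1 beta to 1 alpha, by mm10 TPM only. By mean mm9 RPKM, Sucla2 had 8.41, Suclg2 3.85 and Suclg1 15.5, so the beta subunits together lay below the alpha subunit.

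Partner subunits and steps outside the 43, a list of 14 genes, were led by succinate dehydrogenase, which oxidises succinate and feeds electrons to the respiratory chain. Sdhc had 199 TPM in replicate 1 and 232 TPM in replicate 2, Sdhb 123 and 141 TPM, Sdha 122 and 122 TPM, and Sdhd 103 and 136 TPM. The mean of each of these 4 lay above that of Cs, and Dlst came next. Ogdhl, an Ogdh relative, was the only gene of the list under 1 TPM in both (0.61 and 0.36 TPM).

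All 4 pentose phosphate members exceeded 66 TPM. G6pdx, the X-linked enzyme that commits glucose to the pathway, had 66.9 and 85.0 TPM in replicates 1 and 2, and Pgd, the next NADPH-forming enzyme, had 79.6 and 88.3 TPM. G6pdx over Pgd was -0.15 ± 0.14 on the log2 scale, hardly beyond its spread. Taldo1 had 169 and 231 TPM and Tkt 69.1 and 73.5 TPM, which places transaldolase above transketolase (Tkt over Taldo1 -1.47 ± 0.26) in the branch that returns sugars to glycolysis. The transketolase relatives Tktl1 and Tktl2 were at or below 0.03 TPM, and H6pd, the endoplasmic reticulum counterpart of G6pdx, had 40.3 and 34.5 TPM.

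Glycogen breakdown was represented mainly by the brain form of phosphorylase. Pygb had 249 TPM in replicate 1 and 219 TPM in replicate 2, Pygm (muscle form) 33.1 and 26.1 TPM, and Pygl (liver form) 18.3 and 20.5 TPM. Pygb held 82.7 ± 0.3% of the family and exceeded Pygm by 2.97 ± 0.11 on the log2 scale. Gys1, the muscle-type glycogen synthase, had 27.5 and 29.7 TPM, while Gys2, the liver form, had 0.03 and 0.33 TPM. All 15 genes of a glycogen-handling list reached 1 TPM in both libraries, beside 14533 of all 43346 genes averaging that level. They were led by Gaa, the lysosomal glucosidase (79.0 and 71.6 TPM), Ugp2 (67.7 and 68.5 TPM) and Phkg2 (47.6 and 53.2 TPM). Pgm1 (38.1 and 40.1 TPM) and Gyg, the primer of glycogen (36.4 and 34.0 TPM), followed.

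Most isozymes of the same steps that the member list leaves out were below 1 TPM, as were most genes. Of all 43346 genes, 14533 averaged 1 TPM or more. Of the 15 isozymes, 10 stayed under 1 TPM in both libraries. These were Hkdc1, Gapdhs, Pgk2, Eno4, Ldhc, Pdha2, Mdh1b, Tktl1, Tktl2 and Gys2, of which Pgk2, Ldhc, Pdha2 and Tktl2 were at 0 in both. Pgk2, Ldhc, Pdha2 and Gapdhs are known as the sperm forms of their steps. The highest of the 15 were H6pd, Pygl, Adpgk (15.7 TPM in replicate 1 and 18.6 TPM in replicate 2), Ldhd (10.7 and 15.2 TPM) and Hk3.

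All 14 regulators of flux into and out of pyruvate reached 1 TPM in both libraries, beside 14533 of all 43346 genes averaging that level. The mitochondrial pyruvate carrier subunits led, Mpc1 with 163 and 217 TPM in replicates 1 and 2 and Mpc2 with 54.7 and 69.1 TPM. Among the kinases that switch off pyruvate dehydrogenase, Pdk2 had 41.5 and 26.0 TPM and Pdk4, the fasting-responsive form, 25.4 and 30.7 TPM, so their order changed between the libraries. Pfkfb3, a bifunctional enzyme whose product activates phosphofructokinase, came next with 24.2 and 23.7 TPM.

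None of the 41 members averaging 1 TPM or more differed 2-fold between the libraries. Ratios were taken as log2 of replicate 1 over replicate 2 with 0.5 TPM added and set relative to the median gene, which lay at -0.08. Past a 2-fold ratio were 0 of the 41 members averaging 1 TPM or more and 1.84% of all 14533 such genes, with no p-value, since each side is a single library. Hk1 was past 1.5-fold (0.61), as were 8.28% of all genes. Members ranged from -0.37 (Idh3b and Taldo1) to 0.61 (Hk1), with 16 above and 25 below 0 and a median of -0.02, against 0 for all genes.

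Longer member transcripts tended to be higher in replicate 1. Spearman's rho between effective length and the ratio was 0.49 over the 41 members and 0.35 over all 14533 genes, a description across genes that share the same 2 libraries. Of the 13 members under 1500 bases 10 were below 0, with a median of -0.23, and the high end held Hk1 (0.61), Pfkp (0.49), Ogdh (0.48), Pygm (0.42) and Gpi1 (0.34). Not all long transcripts did so: of the 5 longest members, 3 were above 0 and 2 below, Hk2 at -0.07 and Gys1 at -0.02. All 4 pentose phosphate members lay below 0, with Taldo1 at -0.37 and Tkt nearest to 0.

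Cell type markers also differed between the libraries. All 5 adipocyte markers were lower in replicate 1, with sums of 642 TPM in replicate 1 and 1223 TPM in replicate 2 (Fabp4 587 and 1093 TPM, Adipoq 23.4 and 58.9 TPM). Their ratios ran from -1.41 to -0.76, and 3 of 5 were past 2-fold. All 7 smooth muscle markers were higher in replicate 1 (median 0.26), 5 of 6 urothelial markers lower (median -0.40), and all 4 macrophage markers lower (Lyz2 320 and 343 TPM, C1qb 112 and 131 TPM). Of 4 fibroblast markers 3 were higher in replicate 1, with sums of 4873 and 4658 TPM, led by Dcn (2371 and 2679 TPM) and Col3a1 (1396 and 1240 TPM). The part of tissue composition or transcript length in the members' ratios was not tested.

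**Figure D4:**
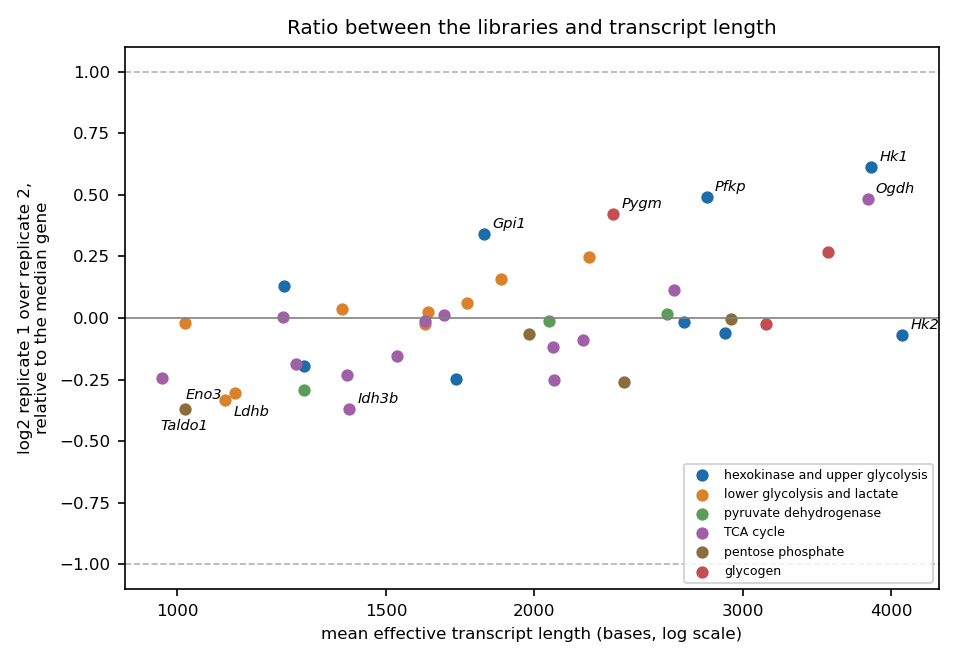
Ratio of replicate 1 over replicate 2 for the 41 enzymes of at least 1 TPM (log2, relative to the median gene) against mean effective transcript length in bases on a log axis, coloured by role. No point passes the dashed 2-fold lines, and the highest points are Hk1, Pfkp and Ogdh, while Hk2, the longest, lies at -0.07.

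The level of several glycolytic enzymes depended on the quantification. The mean mm9 RPKM of Gapdh was 37.9 while its mean was 1707 TPM on mm10, and it ranked 7th among the members by RPKM and first by TPM. Relative to the median gene, its RPKM stood 7.53 times lower, followed by Pgk1 (3.80 times) and Suclg2 (2.08 times). These 3 of 41 members were past 2-fold, against 3.95% of 13953 genes. Eno1 (1.86 times) and Gpi1 (1.83 times) came next. By mm9 RPKM, Aldoa (98.2) led the members, with Pkm (77.5) and Ldhb (51.2) after it.

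Several glycolytic enzymes have near-identical copies elsewhere in the genome. A search of GENCODE M21 pseudogene transcripts for alignments of at least 90% identity over at least 50% of each member's leading coding transcript found copies of 9 of 43 members. Gapdh had 144 copies, of which 137 were quantified and summed to 437 TPM in replicate 1 and 354 TPM in replicate 2. Those copies held 17.6% and 13.7% of the counts on Gapdh and its copies together. For Pgk1, 2 copies held 25.6 and 28.3 TPM, 18.8% and 19.2% of the joint counts, and for Eno1 a single quantified copy held 3.28% and 2.57%. The other 6 members with copies, among them Ldha (7 copies), Pkm (5 copies) and Aldoa (4 copies), had at most 0.44% of the joint counts on them in either library. No copy was found for Suclg2 or Gpi1, whose RPKM was also low. Reads of such genes and their copies can be split either way, so these 3 levels are uncertain, and the TPM on the copies exceeded the SD between libraries in each (88.1 TPM for Gapdh, 5.77 for Pgk1 and 3.07 for Eno1).

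Spliced reads for these genes were few in the pooled junction table. The 6 introns of the leading Gapdh transcript carried 3 to 25846 reads with a median of 152.5, although Gapdh had 127919 and 153560 estimated counts. The 10 introns of Pgk1 carried 53 to 618 reads and the 11 introns of Eno1 85 to 6129 reads. Aldoa, with fewer counts than Gapdh (74985 and 78802), carried 9331 to 22098 reads on each of its 8 introns, and Ldhb 6323 to 12366 on each of 7. Pgam1, for which the search found no copy, carried only 643 to 808 reads on each of its 3 introns at 22734 and 25942 estimated counts. The authors' posterior SD of the count was 0 in both libraries for 33 members. It was 267 and 272 counts for Gapdh, 92.5 and 109 counts for Pgk1, and 78.0 and 91.3 counts for Pgam1. These SDs were small beside the counts. The level of Pgam1 is still held uncertain because of its few spliced reads, whose cause was not tested.

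**Figure D5:**
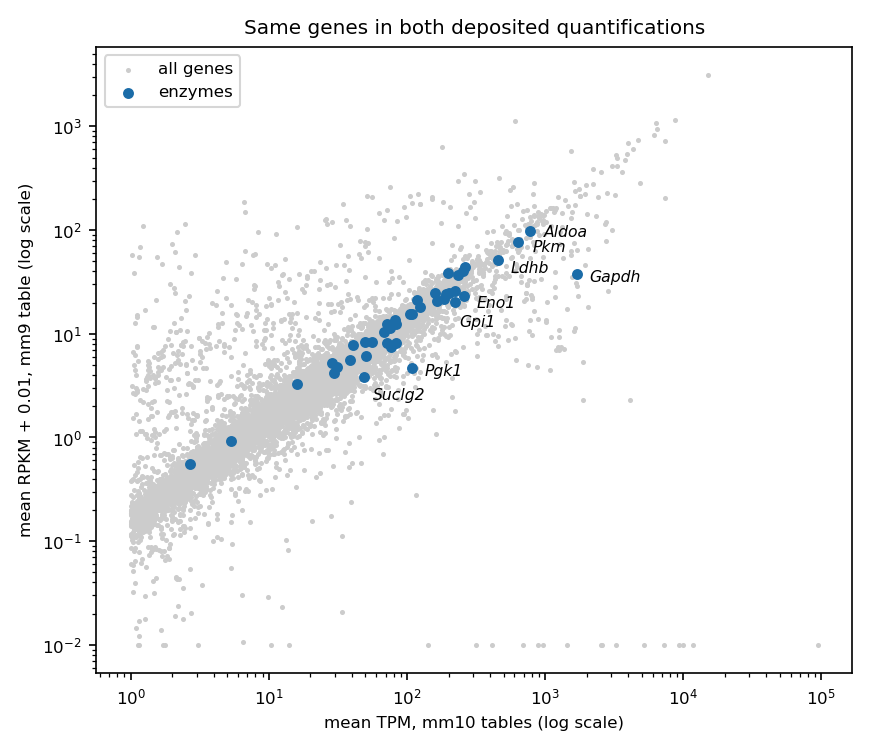
Mean mm9 RPKM (plus 0.01) against mean mm10 TPM, both on log axes, for genes of at least 1 TPM in grey and the 41 enzymes in blue. Gapdh (37.9 RPKM, 1707 TPM) and Pgk1 (4.69 RPKM, 108 TPM) lie well below the main band, while Aldoa, Pkm and Ldhb lie near it.

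Promoter letters were searched in the RefSeq windows from 250 bases before to 50 bases after each start (GRCm38.p6), on both strands. They matched 42 of 43 members by symbol, with 61 windows, since several genes have more than 1 start. Idh3a had no entry. ACGTG or GCGTG occurred in 44 of 61 member windows (72.1%) and in 43.8% of all 32851 windows. GGGCGG occurred in 34 (55.7%, all windows 35.7%), CCAAT in 30 (49.2%, all windows 37.4%), the E-box CACGTG, which contains ACGTG, in 5 (8.20%, all windows 7.15%) and TATAAA in 2 (3.28%, all windows 13.6%). Windows of 1 gene can overlap, and a match describes these letters only.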

How the data were processed

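RNA was measured in 2 bladder libraries. For each library the authors deposited a table of genes and a table of transcripts, built on mm10 and GENCODE M4 according to the text files beside them, with expected counts, TPM and each transcript's percent of its gene. Deposited mm9 tables give RPKM for Ensembl 65 models and junction read counts summed over both libraries; neither of the 2 RPKM values is tied to a replicate, so their mean was used. TPM was scaled over all rows, spike-ins included. Aligner and counter were not given in the sources used here. Rows that are not genes took 5.01% and 5.98% of the expected counts and were left out.

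Symbols, positions and transcript names came from GENCODE M21, by identifier without version. Copies were searched with BLAST 2.17.0. With 2 libraries of 1 group, an exact two-sided test cannot go below p = 0.5, so order and spread are given without a test. A pair was counted as ordered when both libraries had the same sign. Normalization alternatives used edgeR 4.0.16 and DESeq2 1.42.0 on expected counts rounded to whole numbers. The members, the 21 pairs, the related and marker lists and the alternatives were chosen with earlier results of these data known; the isozyme families, glycolytic steps, motifs and copy search were chosen after seeing the data. All 43 members are named. Of each related list the 5 highest and those under 1 TPM are named, and of each marker list the 2 highest and those under 1 TPM. Values are also given for Pdhx, Ppargc1b, Tnnt3, Myh2, Actn3 and Mylpf, which were picked outside this rule. Some genes of the related lists are not reported here, and list counts, family shares and step sums leave them out.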

Additional observations from a re-analysis of the deposited data

How the results depend on the processing

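The count of 41 members at 1 TPM in both libraries was 40 at 5 TPM and 39 at 1 mm9 RPKM, and stayed at 41 under the 6 other alternatives run. The RPKM cut is the stricter, since Hk1, near the median gene, had 5.97 TPM per RPKM. Hk2 (0.921 RPKM) and Aldoc (0.544 RPKM) fell below it. The members' share of 0.829% of gene TPM (0.796% to 0.862% when either library was left out) became 0.976% by CPM of expected counts, 0.988% without mitochondrial genome genes, 0.753% with coding transcripts alone, 0.726% by mm9 RPKM and 0.645% without Gapdh. The number of members past 2-fold was 0 under the other alternatives run, with edgeR TMM and DESeq2 size factors among them, and 1 at a fold of 1.5. Of 21 pairs, 20 had the same order in both libraries, and 19 with coding transcripts alone. CPM, which does not adjust for length, reversed 3 of them, to a log2 ratio of 0.11 for Suclg2 over Sucla2, 0.11 for G6pdx over Pgd and 0.056 for Tkt over Taldo1. A further 15 of the 21 ratios moved by more than their SD under CPM, and 3 did not. Under mm9 RPKM 15 moved, 0 reversed and 6 stayed within their SD. Among those moved by mm9 RPKM, Ldha over Ldhb was -0.23 and Suclg2 over Sucla2 -1.03. With coding transcripts alone 9 moved and 12 did not. The M2 share of Pkm, 52.9% (48.7% to 57.0% when either library was left out), was 17.3% by reads leaving the exon and 27.3% by mm9 RPKM, and the cause was not tested. The coding-transcript, mm9 Pkm and no-Gapdh settings were chosen after seeing the data. Library ratios from mm9 RPKM, or with a library left out, were not run because no ratio remains. No paired analysis was possible because there is 1 group.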

Other observations

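A list of genes that make glucose or move carbon into or out of the TCA cycle was mostly present at lower levels than the glycolytic enzymes. Of 12, 10 reached 1 TPM in both libraries, led by Me1, malic enzyme (84.7 TPM in replicate 1 and 95.9 TPM in replicate 2), Acly, which exports citrate carbon as acetyl-CoA (58.7 and 70.5 TPM), G6pc3, the ubiquitous glucose phosphatase (51.4 and 60.3 TPM), Pck2 (24.3 and 23.0 TPM) and Fbp2, muscle fructose bisphosphatase (20.7 and 25.4 TPM). The liver phosphatase G6pc was at 0.01 TPM in both and the islet form G6pc2 at 0.

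Of 13 transcription factors and splicing factors linked to these enzymes, 12 reached 1 TPM in both libraries. The factors known to act on the Pkm exon pair were abundant, with Hnrnpa2b1 at 251 and 292 TPM in replicates 1 and 2, Hnrnpa1 at 209 and 213 TPM, Srsf3 at 117 and 147 TPM and Ptbp1 at 116 and 105 TPM. Hif1a had 38.9 and 42.0 TPM. Singled out after its values were seen, Ppargc1b, a coactivator of mitochondrial genes, had 3.09 and 0.99 TPM. It was the only gene past 2-fold among the 83 genes of the 6 related lists (log2 1.35). Of all 14533 genes averaging 1 TPM or more, 1.84% were past 2-fold, so this 1 gene is no excess over the background.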
